A study of Mus musculus with 8 samples.

Results

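Nodal signalling in mouse embryonic stem cells was followed here through 9 genes, Nodal, Tdgf1, Acvr1b, Lefty1, Lefty2, Cer1, Foxh1, Smad7 and Skil. They were chosen by symbol as the ligand, its receptors, its extracellular inhibitors and its nuclear effectors and feedback genes. The choice was made with earlier results of these data known. Shares of members called, set beside all genes below, are therefore descriptions. All 9 were found among the 24421 gene symbols of both deposited count tables. Nodal is a secreted TGF-beta family ligand that binds type I and type II activin receptors together with a co-receptor, and the activated receptors phosphorylate SMAD2 and SMAD3, which act on DNA with SMAD4 and partners such as FOXH1. Lefty1 and Lefty2 encode secreted antagonists that are themselves switched on by the pathway and so close a negative feedback loop. In the early embryo this loop patterns the epiblast and its future axes, and Lefty transcripts are commonly read as an output of Nodal and activin signalling in embryonic stem cells.

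PolyA-selected RNA was sequenced from 8 libraries in 4 groups of 2, all from mouse embryonic stem cells kept in 2i/LIF, a medium that supports naive pluripotency, for 3 to 4 passages. The Ubc9-depleted group consisted of v6.5 cells given doxycycline for 72 hours, which depletes Ubc9, the E2 enzyme that joins SUMO to its targets, and its controls are titled Ubc9-WT and are also v6.5. The H1 TKO group consisted of cells lacking the linker histones H1.2, H1.3 and H1.4, set against their own wild-type controls, and both H1 lines were taken from an earlier publication. Left unstated by the labels are the construct that depletes Ubc9, any doxycycline given to the Ubc9 controls, whether the H1 TKO line is 1 clone, and whether replicate libraries stem from separate cultures. The p-values below therefore measure only the spread between libraries, which may be technical. In these bulk samples fewer cells that express a gene and less RNA per cell cannot be told apart.

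The 8 libraries held between 44441713 and 102780141 counts over genes, so that 3 counts correspond to between 0.0300 and 0.0685 CPM (read counts relative to the scaled library size, used for all levels below). The deleted linker histone genes followed the labels, since Hist1h1c, Hist1h1d and Hist1h1e had 100 to 231 counts in each H1 control and 0 counts in both H1 TKO libraries. Summed markers of embryonic stem cells ranged from 4931 to 5489 CPM in the Ubc9 table and from 5345 to 5801 CPM in the H1 controls. In the H1 TKO libraries they ranged from 10446 to 10565 CPM, and none of the 10 was at 0 in any library. Of these 10, 1 was called higher (Utf1) and 1 lower (Tfcp2l1) after Ubc9 depletion, beside 21.1% and 15% of all genes (edgeR). In H1 TKO cells 1 was called higher (Tfcp2l1) and 0 lower, beside 8.59% and 8.43%. The higher sum there was thus not a call shared by the 10. Ubc9-depleted library 1 stood apart, with reads on 85.2% of 6248 genes that were nearly silent in both Ubc9 controls (1 count at most), against 29.2% in Ubc9-depleted library 2. The H1 controls also differed from each other more than the H1 TKO libraries did, since log2 ratios between replicates had an SD over genes of 0.49 in the controls and 0.22 in the TKO cells. That SD was 0.15 for the Ubc9 controls and 0.38 for the Ubc9-depleted libraries.

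All 9 genes are protein-coding in GENCODE M21 (GRCm38). Lefty2 (chr1:180893108-180899103) and Lefty1 (chr1:180935022-180938400) lie 35.9 kb apart on the plus strand of the same chromosome. Nodal lies at chr10:61417972-61425338, Tdgf1 at chr9:110939603-110946158 on the minus strand and Acvr1b at chr15:101174067-101213684. RefSeq promoter windows (GRCm38.p6, 250 bases before to 50 after the annotated start) were matched for 4 of the 9 genes. Of the 4 matched windows, 3 are shown because their genes gave different results below. Acvr1b fell in both comparisons and Tdgf1 passed the test in neither. The effects on Nodal were called different between the 2 comparisons, a call lost under some alternatives. Capitals mark matches on either strand to CAGAC, a SMAD-binding core, or to TGTNNATT, a FOXH1-type motif, and the motifs do not overlap where they occur.
Nodal, chr10:61417722-61418021, plus strand: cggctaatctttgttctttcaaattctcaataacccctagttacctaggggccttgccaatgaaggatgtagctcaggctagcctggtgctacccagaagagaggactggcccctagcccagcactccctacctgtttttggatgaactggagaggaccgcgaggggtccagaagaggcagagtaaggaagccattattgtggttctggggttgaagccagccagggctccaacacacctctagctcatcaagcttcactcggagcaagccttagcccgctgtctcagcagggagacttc
Acvr1b, chr15:101173822-101174121, plus strand: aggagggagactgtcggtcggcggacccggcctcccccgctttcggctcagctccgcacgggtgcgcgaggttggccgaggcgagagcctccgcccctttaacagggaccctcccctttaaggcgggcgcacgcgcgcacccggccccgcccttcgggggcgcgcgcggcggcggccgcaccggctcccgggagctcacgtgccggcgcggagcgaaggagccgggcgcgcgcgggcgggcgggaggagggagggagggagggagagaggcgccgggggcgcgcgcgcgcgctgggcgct
Tdgf1, chr9:110946109-110946408, minus strand: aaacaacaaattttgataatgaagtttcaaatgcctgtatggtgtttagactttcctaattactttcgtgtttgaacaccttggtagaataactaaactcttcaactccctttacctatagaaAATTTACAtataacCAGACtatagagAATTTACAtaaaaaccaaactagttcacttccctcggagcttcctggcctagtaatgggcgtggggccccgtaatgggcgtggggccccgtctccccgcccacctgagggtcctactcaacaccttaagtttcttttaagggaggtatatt
The Tdgf1 window held 1 CAGAC match between 2 TGTNNATT matches, which begin at bases 124, 138 and 150 counted from its 5′ end. In the Nodal and Acvr1b windows these letters did not occur. The window of Cer1, matched but not shown, held 1 CAGAC match at base 38 and no TGTNNATT match. Of all 32851 promoter windows of this length, 49.6% held CAGAC and 12.2% held TGTNNATT. G and C made up 79.7% of the Acvr1b window, 54.0% of the Nodal window and 41.7% of the Tdgf1 window.

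After Ubc9 depletion the ligand, its type I receptor and both Lefty genes were lower, with Lefty2 reduced furthest. Of the 8 members with enough counts to be tested, 5 fell, namely Lefty2, Lefty1, Nodal, Acvr1b and Skil, against a background of 15% of the 16499 genes tested that were called lower (quasi-likelihood test in edgeR, adjusted p under 0.05 by Benjamini-Hochberg). None of the 8 was called higher, against 21.1% of all genes, and that number was also 0 at an unadjusted p under 0.05 and with DESeq2. The median log2 fold change was -0.51 over the 8 members and 0.06 over all genes tested. Scaling libraries by their totals alone moved the latter to 0.25 and the calls over all genes from 3479 higher and 2467 lower to 3983 and 1084, so values under that scaling are read against 0.25. Over the 2 libraries per group, 5 of the 8 tested members lay wholly below the controls and 0 wholly above, against 32.2% and 36.7% of all genes tested. Without Ubc9 control library 1 or 2 the members called lower numbered 3, namely Lefty2, Nodal and Acvr1b. In the H1 TKO cells Lefty2, Lefty1 and Acvr1b were lower, while Nodal was not.

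In the H1 comparison those 3 of 8 tested members fell, against 8.43% of the 14800 genes tested. None was called higher by edgeR, against 8.59% of all genes, whereas 1, Smad7, was higher at an unadjusted p under 0.05 and with DESeq2. The members' median log2 fold change was -0.20, against -0.02 over all genes. The 3 genes that fell in both comparisons, Lefty1, Lefty2 and Acvr1b, stand against 2.61% of the 14578 genes tested in both. The comparisons share no library, but the members were chosen with earlier results of these data known. In the H1 libraries, 3 members lay wholly below the controls and 2, Nodal and Smad7, wholly above, against 30.6% and 31.4% of all genes. Without H1 TKO library 1 or 2 only Lefty2 among the members was called lower, and without H1 control library 1 or 2 the number was 4.

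**Figure D1:**
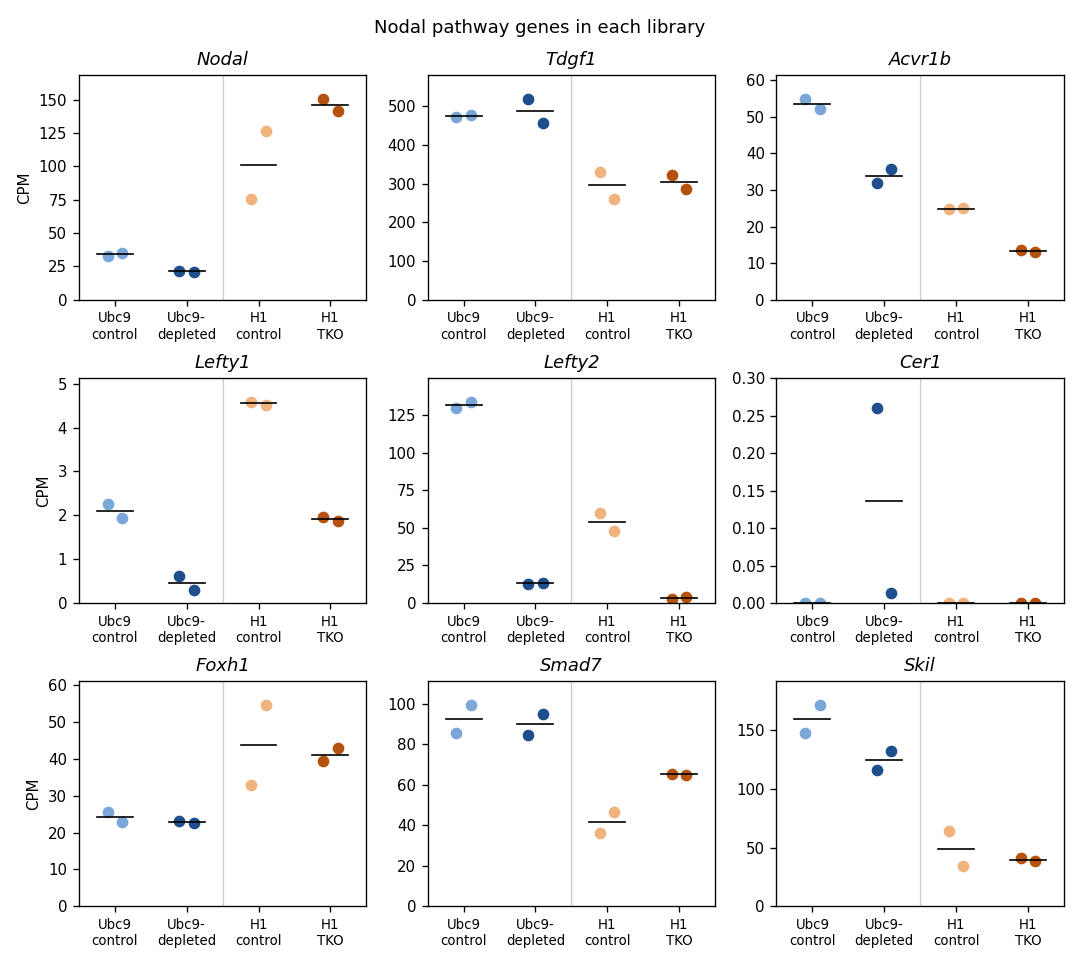
CPM of the 9 genes in each library (points, left to right replicate 1 and 2) with the group mean (line), on axes that start at 0. Lefty2 fell from 129.5 and 134 CPM to 13.0 and 13.5 CPM after Ubc9 depletion and from 59.6 and 47.6 CPM to 2.97 and 4.16 CPM in H1 TKO cells, whereas Tdgf1 overlapped between groups in both comparisons.

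Nodal, the ligand, had 33.05 and 35.5 CPM in the Ubc9 controls and 22.0 and 20.6 CPM in the Ubc9-depleted libraries. The 2 groups did not overlap, and both depleted libraries were low. On the log2 scale Nodal changed by -0.69 ± 0.11 (± SE, n = 2 per group here and below), a 1.61-fold fall, with an adjusted p of 1.3e-05 (edgeR). The call was made without each library in turn, but was lost when all 8 libraries were fitted together (adjusted p = 0.061, with 1.7e-08 to 0.061 over the alternatives other than left-out libraries). In the H1 libraries Nodal was measured at 75.96 and 126 CPM in controls 1 and 2 and at 151 and 142 CPM in the TKO libraries. Both TKO libraries were above both controls, but the controls lay far apart and H1 control library 1 was the lowest. The log2 fold change of 0.53 ± 0.26 (95% interval -0.09 to 1.15) did not pass, with an adjusted p of 0.21 (edgeR), and ranged from 0.21 without H1 control library 1 to 0.94 without H1 control library 2, where it passed at adjusted p = 8.7e-08.

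Tdgf1 encodes Cripto, the membrane-anchored co-receptor that Nodal needs to engage activin receptors. It was the most abundant member per kilobase of exon in all 4 groups. Its levels were 474 and 479 CPM in the Ubc9 controls and 519.6 and 458 CPM in the depleted libraries, and 331 and 262 CPM in the H1 controls and 323 and 286 CPM in the TKO libraries. The groups overlapped in both tables. The log2 fold changes were 0.04 ± 0.13 (95% interval -0.23 to 0.30) after Ubc9 depletion and 0.04 ± 0.20 (-0.43 to 0.51) in H1 TKO cells, so that a change of 2-fold lies outside both intervals. Under scaling by library totals the H1 value was -0.05.

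Acvr1b encodes ALK4, the type I receptor that carries Nodal and activin signals. It was at 54.9 and 52.1 CPM in the Ubc9 controls and at 32.0 and 35.7 CPM in the Ubc9-depleted libraries. In the H1 table it was at 24.90 and 24.98 CPM in the controls and at 13.6 and 13.0 CPM in the TKO libraries. All 4 libraries of the altered cells were below the controls of their own table. The fall was 1.58-fold after Ubc9 depletion (log2 fold change -0.66 ± 0.11, adjusted p = 3.4e-05, edgeR) and 1.88-fold in H1 TKO cells (-0.91 ± 0.21, adjusted p = 0.026, edgeR). The Ubc9 call was made with each library left out in turn, and the H1 call was lost without H1 TKO library 1 or 2 (adjusted p = 0.33 and 0.44).

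Lefty2 carried nearly all of the Lefty signal in the control cells. In the Ubc9 controls it had 12582 and 12291 counts, or 129.5 and 134 CPM, and in the depleted libraries 1297 and 1030 counts, or 13.0 and 13.5 CPM. The 2 depleted libraries agreed closely, including library 1, and no library lay between the groups. Lefty2 fell by 3.31 ± 0.13 on the log2 scale, a 9.95-fold reduction (95% interval of the log2 value -3.57 to -3.06, adjusted p = 7.5e-19, edgeR), and it ranked 3 from the lowest among the 16499 log2 fold changes.

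The same gene had 3632 and 2454 counts in the H1 controls and 130 and 273 in the TKO libraries, or 59.6 and 47.6 CPM against 2.97 and 4.16 CPM. Again no library lay between the groups, and the difference between the H1 controls was small beside that to the TKO cells. Its log2 fold change was -3.90 ± 0.28, a 14.97-fold fall (95% interval -4.56 to -3.25, adjusted p = 5.5e-04, edgeR), rank 97 from the lowest of 14800. Each left-out library and each other alternative kept Lefty2 called lower in both comparisons, with log2 fold changes from -3.42 to -3.12 in the Ubc9 table and from -4.17 to -3.71 in the H1 table. The difference between the 2 falls, 0.57 ± 0.28, did not pass (95% interval -0.05 to 1.19, adjusted p = 0.21, edgeR interaction test), although it did without H1 control library 2 (adjusted p = 0.0061).

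Lefty1, the neighbouring antagonist, was expressed far below Lefty2. Its levels were 2.26 and 1.94 CPM in the Ubc9 controls and 0.619 and 0.288 CPM in the depleted libraries, from 220, 179, 62 and 22 counts. The groups did not overlap, and depleted library 1, the library with reads on many otherwise silent genes, had the higher of the 2 depleted values. The log2 fold change of -2.20 ± 0.57 corresponds to a 4.60-fold fall (adjusted p = 0.0035, edgeR), but the call was lost without Ubc9 control library 1 or 2 (adjusted p = 0.27 and 0.18). Without Ubc9-depleted library 1 it was -2.87 and passed.

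In the H1 libraries Lefty1 stood at 4.58 and 4.52 CPM in the controls and at 1.96 and 1.88 CPM in the TKO libraries. Replicates lay close together here and the groups were separate. The fall was 2.37-fold (log2 fold change -1.24 ± 0.31, adjusted p = 0.036, edgeR), and the call was lost without H1 TKO library 1 or 2 (adjusted p = 0.22 and 0.30). Of the 50-base stretches of the annotated Lefty1 transcripts, 17.9% also occur in Lefty2, and 11.95% of those of Lefty2 occur in Lefty1. How the authors' counting treated reads that match both genes is not given in the sources used here, so the low Lefty1 values are less certain than those of Lefty2.

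Cer1, a secreted inhibitor of Nodal, BMP and Wnt ligands that is typical of anterior visceral endoderm, had 0 counts in all 4 H1 libraries and in both Ubc9 controls. Ubc9-depleted libraries 1 and 2 had 26 counts and 1 count. Cer1 did not pass the filter on low counts and was not tested. Of the 6248 nearly silent genes described above, 22.1% had 26 counts or more in depleted library 1, where their median was 10 counts. With depleted library 2 left out, Cer1 entered the test and was called higher from library 1 alone.

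**Figure D2:**
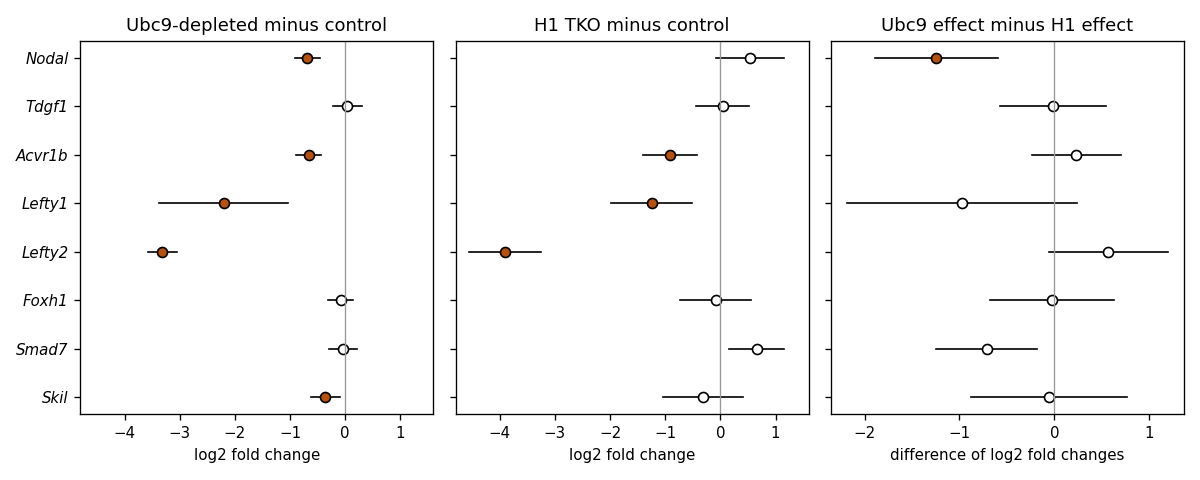
Log2 fold changes of the 8 tested members (points) with 95% intervals (lines) after Ubc9 depletion, in H1 TKO cells, and the difference between the 2 effects. Filled points passed an adjusted p of 0.05 in edgeR: 5 in the first panel, 3 in the second and 1, Nodal, in the third.

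Foxh1 encodes the forkhead factor that recruits SMAD2 and SMAD4 to Nodal target genes. It was at 25.6 and 22.8 CPM in the Ubc9 controls and at 23.3 and 22.5 CPM in the depleted libraries. The log2 fold change was -0.08 ± 0.11 (95% interval -0.30 to 0.14, adjusted p = 0.57, edgeR) and turned to 0.11 under scaling by library totals. In the H1 table the TKO libraries, at 39.4 and 42.9 CPM, lay between the controls at 32.8 and 54.5 CPM. The H1 value of -0.08 ± 0.27 (-0.73 to 0.56) rested on which control was used: without control library 1 it was -0.40 and without control library 2 it was 0.32, and edgeR called both (adjusted p = 0.0029 and 0.030).

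Smad7, an inhibitory SMAD that is induced by TGF-beta family signals and blocks their type I receptors, had 85.3 and 99.2 CPM in the Ubc9 controls and 84.7 and 95.1 CPM in the depleted libraries. These groups overlapped, with a log2 fold change of -0.04 ± 0.12 (95% interval -0.29 to 0.21) that became 0.15 with scaling by library totals. In the H1 table both TKO libraries, at 65.5 and 64.8 CPM, were above both controls, at 36.2 and 46.5 CPM. The log2 fold change was 0.66 ± 0.21 (0.16 to 1.16), with an adjusted p of 0.078 in edgeR and 0.016 to 0.092 over the alternatives other than left-out libraries. It passed without H1 control library 1 (0.49) or 2 (0.85) and not without a TKO library.

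Skil encodes SnoN, a SMAD corepressor whose gene is a feedback target of the pathway. Its levels were 148 and 171 CPM in the Ubc9 controls and 116 and 133 CPM in the depleted libraries. The groups were separate but their edges were close. The fall of 0.36 ± 0.13 on the log2 scale was called (adjusted p = 0.027, edgeR) and was lost when depleted library 1 or either control library was left out (adjusted p = 0.052 for the depleted library, 0.23 for control 1 and 0.61 for control 2). In the H1 table the TKO libraries, at 40.8 and 38.6 CPM, lay between controls at 64.3 and 34.0 CPM. The log2 fold change of -0.31 ± 0.31 became 0.23 without control library 1 and -0.70 without control library 2, the latter called (adjusted p = 1.1e-05, edgeR).

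Of the 8 members tested in both tables, the 2 effects differed for Nodal, where the Ubc9 effect minus the H1 effect was -1.24 ± 0.29 on the log2 scale (95% interval -1.89 to -0.60, adjusted p = 0.018, edgeR interaction test). The background share of genes with a called difference was 14.5% of 16974, with 1372 called above 0 and 1092 below it, or 1914 and 635 with scaling by library totals. The Nodal difference lost its call without Ubc9-depleted library 1 or 2 (adjusted p = 0.075 and 0.060) and, narrowly, with scaling by library totals. For Smad7 the difference was -0.71 ± 0.24 (adjusted p = 0.072). For Lefty1, Acvr1b, Skil, Foxh1 and Tdgf1 it lay between -0.97 and 0.23, and none passed (adjusted p from 0.27 to 0.99). The 2 effects come from different lines and library kits, and a difference in line or kit cannot be told apart from a difference in the perturbation.

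The balance of antagonist to ligand was read within each library as the sum of Lefty1 and Lefty2 over Nodal, each as CPM per kilobase of exonic length. In the Ubc9 controls this ratio was 3.23 and 3.08, and in the depleted libraries 0.507 and 0.543. Lefty transcripts thus outnumbered Nodal transcripts in those controls and not in the depleted cells. In the H1 controls the ratio was 0.702 and 0.345, and in the TKO libraries 0.0313 and 0.0393. The 2 groups of each table were separate, and the ratio in the H1 controls was already below 1. Lefty1 made up 2.53% and 2.12% of the summed Lefty level in the Ubc9 controls and 10.2% and 12.4% in the H1 controls, but 49.6% and 40.1% in the H1 TKO libraries, where the 2 genes stood near each other. In the depleted libraries the Lefty1 share was 6.63% and 3.07%.

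**Figure D3:**
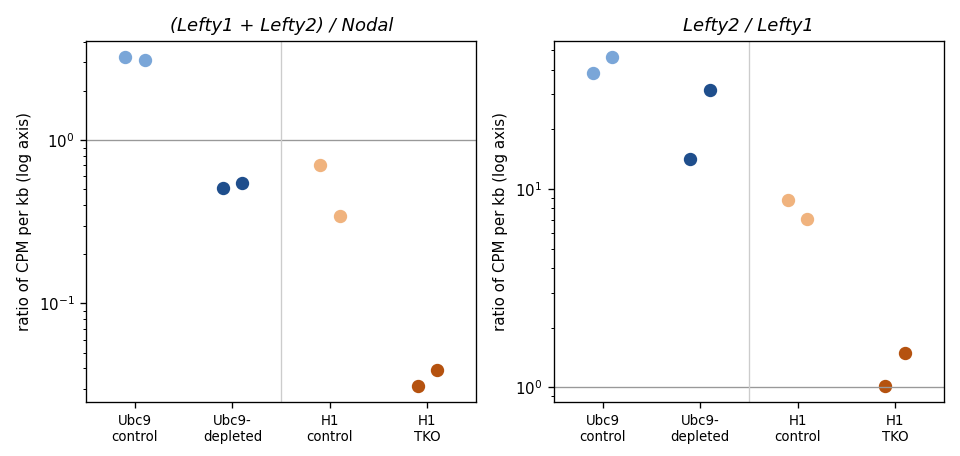
Ratio of summed Lefty1 and Lefty2 to Nodal (left) and of Lefty2 to Lefty1 (right) in each library, as CPM per kilobase on log axes, with a line at 1. Both H1 TKO libraries lie below their own controls in both panels, at 0.0313 and 0.0393 on the left and at 1.02 and 1.49 on the right.

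Ordered by mean CPM per kilobase, the Ubc9 controls ran from Tdgf1 (182) through Lefty2 (50.4), Smad7 (20.4), Foxh1 (17.7), Skil (16.5), Nodal (16.4) and Acvr1b (12.1) to Lefty1 (1.20) and Cer1 (0). Foxh1 and Skil, and Skil and Nodal, overlapped over the 2 libraries, and the other neighbours did not. In the depleted cells Lefty2 dropped to the seventh place at 5.06, below Acvr1b at 7.66. The H1 controls had a different order, with Nodal (48.3) next after Tdgf1 (113) and overlapping Foxh1 (32.0), followed by Lefty2 (20.5). In H1 TKO cells Lefty2 was again in the seventh place, at 1.37, just above Lefty1 at 1.09, with no overlap between them. The tables were made with different kits and scaled apart, so levels are compared only within a table.

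Other genes of the pathway were read from 6 lists with 63 genes in all, of which 59 were tested in the Ubc9 table and 52 in the H1 table. After Ubc9 depletion 12 rose and 14 fell, beside 21.1% higher and 15% lower over all genes, with a median log2 fold change of -0.07. DESeq2 called 13 and 11. Of the 12 that rose, Bmp2, Bmpr1b, Chrd, Fgf8, Foxa2 and Nog had control means under 1 CPM. In the H1 comparison 8 rose and 2 fell, beside 8.59% and 8.43% over all genes, with a median of -0.19, while DESeq2 called 9 and 6. The number that rose after Ubc9 depletion was near the background share. The number that fell was 4 with scaling by library totals, where 1084 of 16499 genes fell. It was 2 in 1 fit of all 8 libraries, where 483 of 16974 genes fell. Both numbers were near the share over all genes under the same setting. The counts of single lists below are descriptions to be read against the 4 percentages above. With depleted 1, depleted 2, control 1 and control 2 left out of the Ubc9 table, in that order, 13, 21, 4 and 4 rose and 13, 22, 7 and 7 fell. With TKO 1, TKO 2, control 1 and control 2 left out of the H1 table, 4, 5, 14 and 17 rose and 2, 1, 15 and 16 fell.

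Among ligands and processing enzymes, Inhbb, the beta B subunit of activin B, rose in both comparisons. It went from 6.65 and 7.01 CPM to 21.2 and 21.9 CPM after Ubc9 depletion (log2 fold change 1.66 ± 0.11, adjusted p = 1.1e-12) and from 13.6 and 19.1 CPM to 93.5 and 75.4 CPM in H1 TKO cells (2.37 ± 0.26, adjusted p = 0.0016, edgeR). Both calls were made with each library left out in turn. Tgfb1, another TGF-beta family ligand, rose by 1.11 ± 0.27 in the Ubc9 table and fell by 2.04 ± 0.34 in the H1 table. Tgfb2 rose by 1.32 ± 0.32 after Ubc9 depletion, and by 0.76 with depleted library 1 left out. Without control 1 or 2 the Ubc9 calls of Tgfb1 (adjusted p = 0.11 and 0.17) and Tgfb2 (0.098 and 0.16) were lost in edgeR. Furin, a convertase that cleaves pro-Nodal, fell by 0.47 ± 0.11 after Ubc9 depletion and had a log2 fold change of 0.78 in H1 TKO cells (adjusted p = 0.051, edgeR). In all, 3 of 6 tested genes of this list rose and 1 fell in the Ubc9 table, and 1 of 6 rose and 1 fell in the H1 table, where over all genes 21.1% and 15%, and 8.59% and 8.43%, did so.

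Of the receptors, 1 of 6 fell after Ubc9 depletion, the TGF-beta receptor Tgfbr2 (-0.48 ± 0.17), and 1 of 5 rose in H1 TKO cells, the co-receptor Tgfbr3 (1.47 ± 0.26). DESeq2 called 0 receptors in the Ubc9 table, and the edgeR call of Tgfbr2 was also lost without depleted 2 (adjusted p = 0.086), control 1 (0.15) or control 2 (0.41). That of Tgfbr3 was lost without TKO 1 (adjusted p = 0.058, edgeR). Of 7 signal transducers 1, Smad3, fell after Ubc9 depletion, from 29.4 ± 0.41 to 19.4 ± 1.97 CPM (mean ± SD, log2 fold change -0.60 ± 0.11, adjusted p = 9.2e-05, edgeR). Smad2, the other receptor-activated SMAD of this branch, was singled out after its values were seen and had log2 fold changes of -0.09 (95% interval -0.33 to 0.16) and -0.03 (-0.49 to 0.43). In the H1 comparison edgeR called 0 of the 7 transducers, DESeq2 also 0, and 1 had an unadjusted p under 0.05.

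Among 15 inhibitors and SMAD modulators 2 rose and 3 fell after Ubc9 depletion, and 3 rose in H1 TKO cells with none called lower by edgeR (DESeq2 called 1 lower, and 3 were lower at an unadjusted p under 0.05). Pmepa1, a target gene that traps receptor-activated SMADs, fell from 37.4 and 39.7 CPM to 25.2 and 26.3 CPM after Ubc9 depletion (-0.58 ± 0.11, adjusted p = 1.2e-04, edgeR). Tgif2, a SMAD corepressor, fell by 0.55 ± 0.11, Bambi, a decoy receptor, rose by 1.18 ± 0.15, and Dact2, an antagonist of Nodal receptors, rose by 0.43 ± 0.11 on the log2 scale. Fst encodes follistatin, a secreted trap of activins. In H1 TKO cells it went from 12.5 and 10.7 CPM to 36.2 and 38.3 CPM (1.69 ± 0.21, adjusted p = 0.0029, edgeR), and Nedd4l, a ubiquitin ligase for activated SMADs, rose by 0.85 ± 0.20. The call of Fst, but not that of Nedd4l, is among those kept with each library left out, as given below. Outside the naming rule, Drap1 completed the 3 that fell in the Ubc9 table and Fstl3 the 3 that rose in the H1 table. Fstl3 was near the floor, at 0.00821 ± 0.0116 CPM in the H1 controls and 0.331 ± 0.0803 CPM in the TKO libraries (mean ± SD).

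Of 9 tested mesendoderm transcription factors and signals that respond to Nodal, 5 fell and 2 rose after Ubc9 depletion, beside 15% and 21.1% of all genes, and DESeq2 called 3 lower. Hhex among the former and Foxa2 and Fgf8, the 2 that rose, fall outside the naming rule. Otx2, a head and primed-epiblast factor, went from 27.5 and 31.0 CPM to 7.59 and 8.24 CPM (-1.89 ± 0.11, adjusted p = 7.4e-14, edgeR). Gsc, an organizer gene, fell by 1.00 ± 0.24 and Eomes, a primitive streak factor, by 0.45 ± 0.15. In H1 TKO cells Eomes rose from 18.6 and 16.2 CPM to 38.2 and 39.1 CPM (1.15 ± 0.21, adjusted p = 0.011, edgeR), the only edgeR call among 7 tested, while Otx2 and Gsc had log2 fold changes of -1.33 and -1.31 that did not pass. DESeq2 called 1 higher and 2 lower in this list, and 4 were lower at an unadjusted p under 0.05. Without TKO 1 or 2 the H1 call of Eomes was lost (adjusted p = 0.14 and 0.16, edgeR), as was its Ubc9 call without control 1 or 2 (0.28 and 0.24) and that of Gsc without control 1 (0.30).

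**Figure D4:**
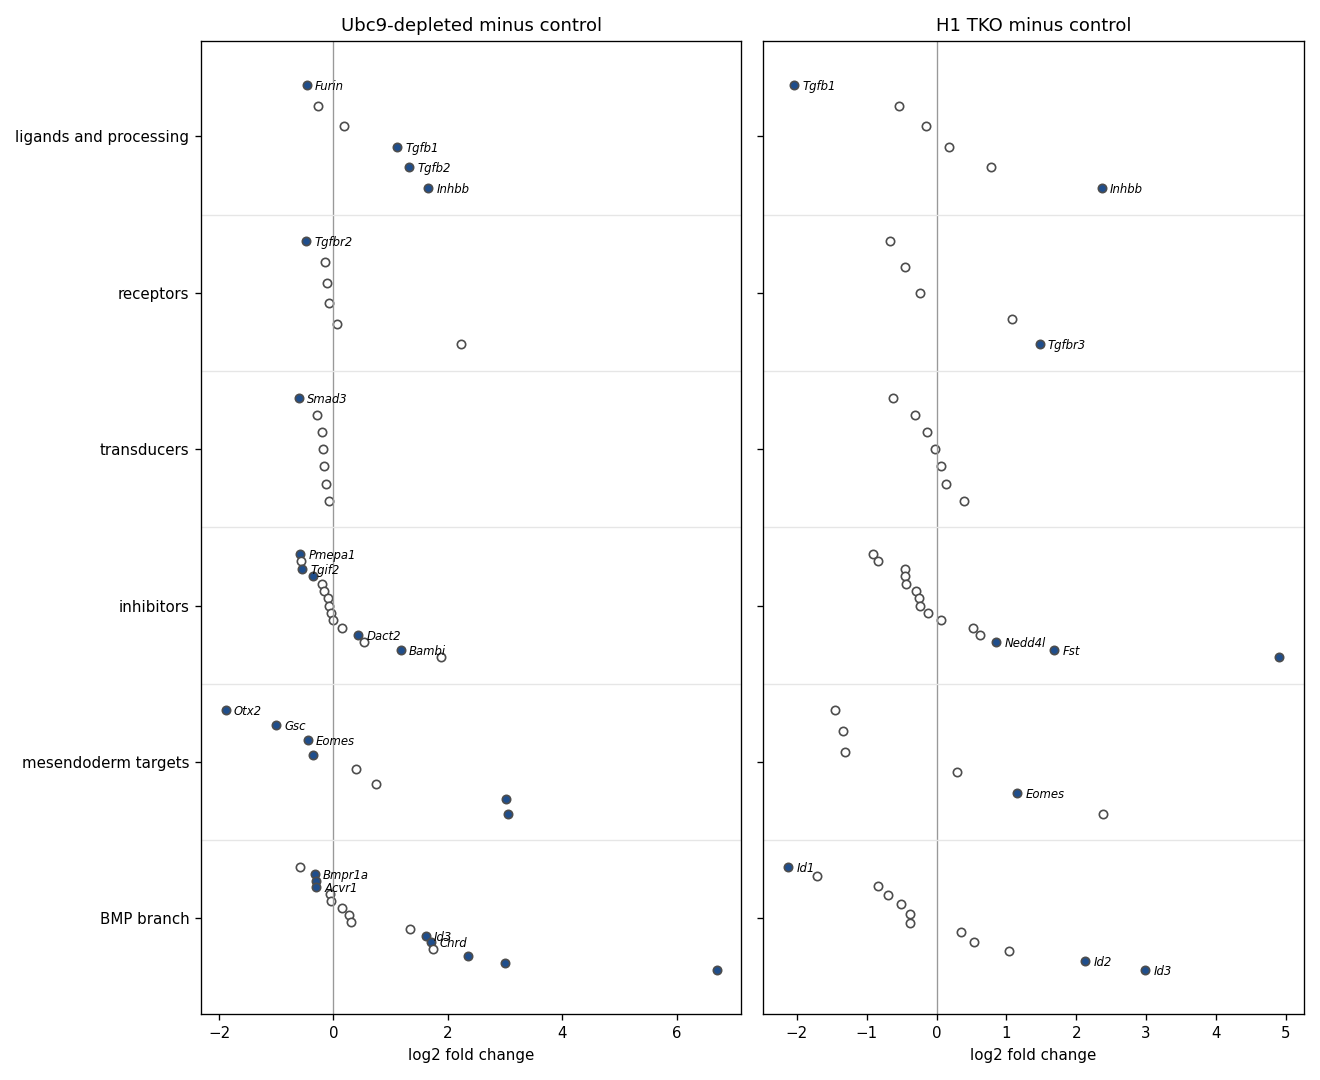
Log2 fold changes of the other pathway genes by list in each comparison, with filled points for genes past an adjusted p of 0.05 in edgeR and labels on genes chosen by the naming rule (1 mesendoderm gene is not drawn). Inhbb is the rightmost of the ligands in both panels (1.66 and 2.37), and Eomes is left of 0 after Ubc9 depletion and right of it in H1 TKO cells.

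Among the 18 pathway genes chosen by the naming rule for the Ubc9 comparison, 16, 17, 9 and 10 kept their call without depleted 1, depleted 2, control 1 and control 2. Bambi, Furin, Id3, Inhbb, Otx2, Pmepa1, Smad3 and Tgif2 were among those that kept it in all 4 fits. Of the 9 named for the H1 comparison, 6, 6, 9 and 9 kept their call without TKO 1, TKO 2, control 1 and control 2, with Fst, Id2, Id3, Inhbb and Tgfb1 called in all 4.

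Markers of other cell types also differed, to be read beside 21.1% higher and 15% lower calls over all genes in the Ubc9 table and 8.59% and 8.43% in the H1 table. Primitive endoderm markers summed to 13.2 to 13.5 CPM in the Ubc9 controls and 20.5 to 27.4 CPM in the depleted libraries, where 4 of 6 tested rose (Gata6, Sox17, Dab2 and Foxq1), and to 7.90 to 9.03 CPM in the H1 controls and 15.3 to 16.8 CPM in the TKO libraries, where 1 of 6 rose (Dab2). Anterior visceral endoderm markers share Otx2, Gsc, Hhex, Foxa2 and Lhx1 with the mesendoderm list. They summed to 44.9 to 51.7 CPM in the Ubc9 controls and 21.4 to 22.2 CPM after depletion. Most of this fall was that of Otx2, from 27.5 and 31.0 CPM to 7.59 and 8.24 CPM. Of 5 tested markers of this list, 3 were lower (Hhex, Gsc and Otx2) and 1 higher (Foxa2), and Lhx1 was at 0 in both controls. Foxa2 was near the floor, at 0.0535 ± 0.0319 CPM in the controls and 0.438 ± 0.397 CPM after depletion (mean ± SD). Hhex and Foxa2 each kept their call in 2 of 6 alternatives other than left-out libraries. In the H1 table that sum was 12.2 to 16.2 CPM in the controls and 14.2 to 16.9 CPM in the TKO cells, and edgeR called none of 4 tested. Fibroblast markers summed to 12.1 to 12.5 CPM in the Ubc9 controls and 30.5 to 33.3 CPM in the depleted libraries, where 5 of 7 tested rose, and to at most 8.83 CPM in the H1 libraries, where Postn was at 0 in all 4. The part of these markers in the results above was not tested.

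Profiles over the 8 libraries were compared by Pearson's r of log2(CPM + 1), centred within each table, among genes with at least 5 CPM on average in both tables (9212 for Lefty2 and 9213 for Lefty1). Lpar1, Bcar3, Ubd, Ctsc and Tes were most like Lefty2, with r between 0.992 and 0.997. Lefty1 lay below that level, at 2.10 CPM in the Ubc9 controls and 4.55 CPM in the H1 controls. It was therefore not a candidate for Lefty2. Lpar1, a lysophosphatidic acid receptor, went from 164 and 175 CPM to 92.6 and 95.7 CPM after Ubc9 depletion and from 36.3 and 33.3 CPM to 17.2 and 17.2 CPM in H1 TKO cells. The log2 fold changes of these 5 genes lay between -1.09 and -0.75 after Ubc9 depletion and between -1.17 and -0.78 in H1 TKO cells, smaller than those of Lefty2, since r follows the shape of a profile and not its size. For Lefty1 the nearest were Mcur1, Rasgrp1, Hesx1, Ngfr and Lad1, with r between 0.978 and 0.993. At the low level of Lefty1 the added 1 flattens its profile. The libraries of a group share their treatment, so these values describe 4 groups rather than 8 independent points.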

How the data were processed

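PolyA RNA-seq was analysed for 8 libraries, 2 per group. The authors deposited raw read counts per gene, whole numbers per gene symbol, in 1 table for the Ubc9 and 1 for the H1 comparison. The submitters' processing notes name cutadapt, STAR, HTSeq, DESeq2 and mm10, without versions or roles, and say nothing of the strand setting or annotation. Per the labels, libraries were made with ScriptSeq v2 (Ubc9) or Lexogen SENSE V2 (H1). Columns were assigned by the sample named in each header.

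Each table was fitted alone in edgeR 4.0.16 (R 4.3.3) with filterByExpr (minimum count 10, minimum total 15), TMM factors and the quasi-likelihood F test, adjusted by Benjamini-Hochberg over all genes tested at 0.05. The difference between effects came from 1 fit of all 8 libraries. CPM used TMM-scaled library sizes. Exonic lengths came from GENCODE M21, where 23376 of 24421 symbols and all 9 members matched. No 2 libraries of a group agreed within sampling noise. Alternatives were DESeq2 1.42.0, RLE factors, library totals, no low-count filter, 1 fit of all 8 libraries, a replicate block and each library left out, where the lone library is assumed to vary like the other group.

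The text names the 9 members, up to 4 called genes per list and comparison with the smallest adjusted p and a mean of at least 1 CPM, and the 5 profiles most like each Lefty gene. The level of the gene targeted in the Ubc9 comparison and 1 mesendoderm gene are not reported here, although list counts include the latter. Members and lists were chosen with earlier results of these data known. On simulated counts for the Ubc9 table (16345 genes) the test recovered 72% of 2-fold and 80% of 4-fold changes with 4.40% false calls. For the H1 table (14506 genes) these values were 25%, 81% and 7.02%. The simulation changed few genes and gave both groups the same spread for each gene. In the data, replicate SDs were 0.15 in the Ubc9 controls and 0.38 after depletion, and 0.49 in the H1 controls and 0.22 in TKO cells. These rates may therefore not carry over to the data.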

Additional observations from a re-analysis of the deposited data

Results flagged for a closer look

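For 14 of the named genes the Ubc9 effect and the H1 effect differed by the edgeR interaction test. The named pathway genes were chosen for a call in 1 of the comparisons, so their number is not comparable with the share of all genes. Values are the Ubc9 minus the H1 log2 fold change, with the adjusted p in brackets. Nodal differed by -1.24 (0.018). Tgfb1 differed by 3.12 (7.2e-04), Furin by -1.26 (0.0039), and the receptors Tgfbr2 and Tgfbr3 by -1.58 (0.037) and -1.63 (0.0035). Of the inhibitors, Fst differed by -1.77 (7.4e-04), Bambi by 1.28 (0.0055), Nedd4l by -1.03 (0.011) and Pmepa1 by -1.13 (0.041). Eomes differed by -1.62 (0.0018). In the BMP branch, Chrd differed by 3.40 (0.021), Id1 by 3.43 (0.040), Id2 by -2.73 (0.0031) and Id3 by -1.41 (0.035), and Id3 rose in both comparisons. The lines and library kits of the 2 comparisons cannot be told apart from the perturbations. Groups of 2 libraries were not tested for outliers.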

How the results depend on the processing

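Lefty2, Lefty1, Acvr1b and Nodal kept their direction in both tables under every alternative run. So did Skil in the Ubc9 table and Smad7 in the H1 table. Lefty2 also kept its call in both tables. In 1 fit of all 8 libraries the Ubc9 values were -0.70 for Nodal (adjusted p = 0.061) and -0.37 for Skil, neither called, with 3 members lower and 5 pathway genes higher and 2 lower, while H1 Smad7 was called at 0.67, 1 member was higher and 8 pathway genes were lower. Over all genes that fit called 1100 higher and 483 lower in the Ubc9 comparison and 2205 and 2158 in the H1 comparison. Scaling by library totals gave Ubc9 values of -0.17 for Skil, 0.15 for Smad7 and 0.11 for Foxh1 with 4 pathway genes lower, an H1 value of -0.053 for Tdgf1, and differences between effects of -0.96 for Nodal, 0.29 for Tdgf1, 0.24 for Skil and 0.26 for Foxh1, with 0 members different. DESeq2 called H1 Smad7 at 0.66 (1 member higher), 6 H1 pathway genes lower, and 2 members different, with Smad7 at -0.85. Without the low-count filter 8 H1 pathway genes were lower.

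Deviations of same-numbered libraries correlated at -0.01 in the Ubc9 table and 0.20 in the H1 table over genes. The labels tie the numbers to no shared culture or day, and with 2 libraries per group they were not taken as pairs. With the replicate block 6 H1 pathway genes were lower, against 2 without it, and the Ubc9 value of Nodal was -0.69.

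With each library left out in turn, Ubc9 values ranged from -2.87 to -1.84 for Lefty1, -0.54 to -0.27 for Skil, -0.062 to 0.048 for Tdgf1 and -0.20 to 0.045 for Smad7, with 0 to 1 members higher, 3 to 5 lower, 4 to 21 pathway genes higher and 7 to 22 lower. H1 values ranged from -1.30 to -1.21 for Lefty1, 0.21 to 0.94 for Nodal, -0.12 to 0.22 for Tdgf1, 0.49 to 0.85 for Smad7, -0.70 to 0.23 for Skil, -0.40 to 0.32 for Foxh1 and -0.96 to -0.88 for Acvr1b, with 0 to 3 members higher, 1 to 4 lower, 4 to 17 pathway genes higher and 1 to 16 lower. Differences between effects ranged from 0.31 to 0.84 for Lefty2, -1.65 to -0.97 for Nodal, -0.25 to 0.14 for Tdgf1, -0.90 to -0.60 for Smad7, -0.65 to 0.33 for Skil and -0.43 to 0.25 for Foxh1, with 0 to 3 members different. Over all genes, 8428 were higher and 4610 lower without Ubc9-depleted library 2, against 1299 and 898 with control 1 left out and 1230 and 795 with control 2 left out. In the H1 comparison 636 and 532, 617 and 488, 3610 and 3505, and 3994 and 4038 were higher and lower without TKO 1, TKO 2, control 1 and control 2. The variation between libraries that edgeR estimated also moved (common coefficient of variation, 1 value per fit). It was 0.079 without either Ubc9-depleted library and 0.68 without either Ubc9 control library. In the H1 comparison it was 0.33 without either TKO library and 0.104 without either control library. A call can thus be lost while its fold change stays similar, as for Acvr1b in the H1 comparison. The cause was not tested for any of these changes.

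With 2 libraries per group, whose separate origin the labels do not give, precision is limited by their number rather than by depth. Cer1 is the exception, since a count of 0 allows up to 3 counts in each library. For counts of 0, limits cover counting error only.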

Other observations

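The BMP branch signals through SMAD1, SMAD5 and SMAD9 and shares SMAD4 with Nodal. After Ubc9 depletion 5 of 16 tested genes rose and 3 fell, with a median log2 fold change of 0.29, and in H1 TKO cells 2 of 12 rose and 1 fell, with a median of -0.38 (edgeR, Benjamini-Hochberg adjusted). Over all genes 21.1% rose and 15% fell in the Ubc9 comparison and 8.59% and 8.43% in the H1 comparison, so these counts are not set apart from the background. Id3, a helix-loop-helix inhibitor and common BMP target, rose in both. It went from 4.02 and 3.56 CPM to 14.0 and 9.17 CPM after Ubc9 depletion (1.61 ± 0.17, adjusted p = 1.1e-08, edgeR) and from 12.1 and 22.8 CPM to 130.0 and 146 CPM in H1 TKO cells (2.99 ± 0.33, adjusted p = 0.0016, edgeR).

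Its relatives did not all follow. In H1 TKO cells Id2 rose from 1.97 and 2.13 CPM to 8.65 and 9.29 CPM (2.13 ± 0.28, adjusted p = 0.0033, edgeR), while Id1 fell from 2.18 and 4.31 CPM to 0.731 and 0.747 CPM (-2.13 ± 0.48, adjusted p = 0.025, edgeR), a call lost without H1 TKO library 2. After Ubc9 depletion Id1 stood at 2.40 CPM in library 1 and 0.471 CPM in library 2, against 0.669 and 0.467 CPM in the controls. Chrd, which encodes the BMP antagonist chordin, rose by 1.71 ± 0.60 and the receptors Acvr1 and Bmpr1a fell by 0.30 ± 0.11 and 0.33 ± 0.13 in the Ubc9 comparison. Bmp2, Bmpr1b, Nog and Bmpr2, outside the naming rule, complete the calls in that comparison. Bmp2 went from 0.152 ± 0.0615 to 1.22 ± 1.06 CPM (mean ± SD). Bmpr1b went from 0.0106 ± 0.000404 to 1.23 ± 1.38 CPM and Nog from 0.233 ± 0.0238 to 1.19 ± 0.904 CPM. Bmp2, Bmpr1b and Nog were thus low in the controls, and their depleted libraries lay far apart. The calls of Chrd, Acvr1 and Bmpr1a were lost without Ubc9 control library 1 or 2, and those of Acvr1 and Bmpr1a also without Ubc9-depleted library 1.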
